A study of Mus musculus with 20 samples.

Results

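The thrombospondins and Comp are a family of 5 mouse genes, Thbs1, Thbs2, Thbs3, Thbs4 and Comp, and all 5 were found by symbol among the 23284 genes measured in each of 20 hearts. The genes were chosen by family membership with earlier results of these hearts in view, so their levels and differences are given as a description. Calls under the rule for all genes are printed beside the share of genes called, and are not a test of the family. The hearts came from C57BL/6 mice of either genotype. Controls were Wnt5a floxed, and CKO mice were Wnt5a floxed with Myh6-Cre/Esr 1, a transgene in which the heart-muscle promoter of Myh6 drives Cre recombinase joined to part of the oestrogen receptor, so that tamoxifen switches the recombinase on. Controls carried no Cre, so the transgene and the loss of Wnt5a cannot be told apart between the genotypes. Hearts of each genotype were taken when tamoxifen treatment ended, with no operation, or 2 or 4 weeks after surgery. The surgery was a sham operation or TAC (transverse aortic constriction), in which the aorta is narrowed so that the left ventricle pumps against raised pressure. That gave 10 groups of 2 hearts, each named here by the number in its label. The title of the series places Wnt5a in an axis with YAP, the Hippo pathway co-activator, in the response of cardiac myocytes to mechanical load. Labels used here give no sex, age or pressure gradient.

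Thrombospondins are calcium-binding glycoproteins that cells secrete into the extracellular matrix, where they bind collagens, integrins and proteoglycans. Thbs1 and Thbs2 encode the subgroup that forms trimers and carries type 1 repeats. The Thbs1 protein is stored in platelet granules, inhibits blood vessel growth and can release TGF-beta from its latent complex, and the Thbs2 protein shapes collagen fibrils. Thbs3, Thbs4 and Comp encode the subgroup that forms pentamers and lacks type 1 repeats. Comp (cartilage oligomeric matrix protein) organises collagen in cartilage and tendon, and Thbs4 is known in the mouse heart as a gene of pressure overload whose protein also works inside the endoplasmic reticulum with the stress sensor ATF6.

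Promoter sequence from RefSeq (build GRCm38.p6) was matched for 3 of the 5 genes, Thbs2, Thbs3 and Thbs4, and is shown because Thbs4 was high in control TAC hearts while Thbs2 was not. Each line holds the 250 bases before the transcription start, 5′ to 3′ on the strand of the gene. Capitals mark every match to 4 short motifs searched on both strands: the TEAD core GGAATG (TEAD proteins are the DNA-binding partners of YAP), the AP-1 site TGANTCA, the SMAD box CAGAC and the TATA box TATAAA. The Thbs4 window lies at chr13:92794819-92795068 on the minus strand. The others are the Thbs2 window at chr17:14694263-14694512 on the minus strand and the Thbs3 window at chr3:89214930-89215179 on the plus strand.
Thbs4: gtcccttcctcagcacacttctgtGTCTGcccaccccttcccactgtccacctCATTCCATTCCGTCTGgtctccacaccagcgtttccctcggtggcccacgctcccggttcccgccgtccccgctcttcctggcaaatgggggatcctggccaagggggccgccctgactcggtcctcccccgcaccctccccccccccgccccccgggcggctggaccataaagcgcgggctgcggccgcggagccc
Thbs2: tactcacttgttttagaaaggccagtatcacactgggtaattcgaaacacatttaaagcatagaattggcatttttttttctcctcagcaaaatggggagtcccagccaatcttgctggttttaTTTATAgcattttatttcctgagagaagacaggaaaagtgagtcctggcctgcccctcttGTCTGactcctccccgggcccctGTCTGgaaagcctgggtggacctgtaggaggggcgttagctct
Thbs3: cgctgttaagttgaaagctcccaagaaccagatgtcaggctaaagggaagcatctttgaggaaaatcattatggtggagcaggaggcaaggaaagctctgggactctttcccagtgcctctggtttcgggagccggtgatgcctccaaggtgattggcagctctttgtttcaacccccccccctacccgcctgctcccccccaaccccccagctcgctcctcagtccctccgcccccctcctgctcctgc
The Thbs4 window held 2 matches to the TEAD core, both read as CATTCC on the strand shown, 197 to 192 and 192 to 187 bases before the start, so that they share 1 base. It also held 2 matches to the SMAD box, 226 to 222 and 186 to 182 bases before the start. The Thbs2 window held 2 SMAD box matches and 1 TATA box match, 126 to 121 bases before the start on the other strand. The Thbs3 window held none of the 4 motifs. Among 32851 promoter windows of the same length, 12.64% held the TEAD core at least once and 1.02% at least 2 times. The SMAD box was in 42.19% (at least 2 times in 11.73%), the TATA box in 12.37% and the AP-1 site in 6.75%. The G and C content was 70.8% in the Thbs4 window, 58.8% in that of Thbs3 and 46.8% in that of Thbs2. Such matches describe letters in these windows and are not binding sites shown by these data.

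Values are FPKM, in which the fragments of a gene are divided by its transcript length in kilobases and by library size. They are per length and so can be compared between genes. In the annotation GENCODE M21 on build mm10, Thbs1 lies at chr2:118111876-118127133 (plus strand), Thbs2 at chr17:14665500-14694235 (minus), Thbs3 at chr3:89215180-89226837 (plus), Thbs4 at chr13:92751590-92794818 (minus) and Comp at chr8:70373558-70382066 (plus). The Mtx1 gene of that annotation, on the minus strand, runs across Thbs3, whereas in RefSeq the genes are 1272 bases apart. No source used here says how strand was used in counting, so the Thbs3 values are uncertain where the 2 genes overlap. Mtx1 itself did not pass the test for TAC in control hearts (log2 difference 0.04 ± 0.10, limma adjusted p = 0.789).

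The number of fragments per library is unknown, and relative depth, read from the steps between low values, was 0.877 to 1.21. As a check of the genotype labels, the receptor gene Esr1, of which the transgene holds a stretch, had 0.101 to 0.465 FPKM in controls and 197 to 931 FPKM in CKO hearts. Wnt5a ranged over 1.59 to 4.11 FPKM in controls (10 hearts) and 0.853 to 2.33 FPKM in CKO mice (10 hearts), so the genotypes overlapped. CKO minus control did not pass the test in TAC hearts at 2 weeks (log2 difference -0.32 ± 0.21, limma adjusted p = 0.593). Nor did it at 4 weeks (-0.49 ± 0.21, limma adjusted p = 0.374), or without TAC. With TAC, Wnt5a fell in controls (-0.76 ± 0.15, limma adjusted p = 0.00152) and in CKO hearts (-0.55 ± 0.15, limma adjusted p = 0.0339). The defining markers of heart muscle were high in every heart (Myl2 at least 27350 FPKM, Tnnt2 at least 7324 FPKM). Myl7, a marker of atrial muscle, was 10 FPKM or more in 5 hearts (11, 14, 16, 21 and 24, with 32.2 to 372 FPKM) and at most 1.66 FPKM in the other 15. Where leaving those hearts out changed the call of a member, the value without them is given.

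Before operation and after sham, no gene held most of the family sum throughout. Thbs2 had 4.64 to 7.54 FPKM in the 12 hearts without TAC and was the highest of the 5 genes in 9 of them, with 35.6% to 51.6% of the sum. In the other 3 (hearts 23 and 24 at the end of tamoxifen, and sham heart 14) Thbs1 was higher. Thbs3 stood at 1.89 to 3.65 FPKM, Thbs4 at 1.07 to 3.67 FPKM and Comp at 0.416 to 2.28 FPKM in those 12 hearts. The 5 genes summed to 12.1 to 28.8 FPKM in 11 of them and to 63.5 FPKM in heart 14, a CKO sham heart at 2 weeks in which Thbs1 alone gave 81.7% of the sum. After TAC the 4 control hearts had sums of 53.8 to 69.1 FPKM, and the 4 CKO hearts of 20.4 to 30.1 FPKM. Thbs4 was the highest of the 5 genes in control TAC hearts 11, 1 and 2, with 38.1%, 40.3% and 49.0% of the sum, and Thbs1 in control heart 32 and in all 4 CKO TAC hearts, with 31.5% to 67.1%.

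**Figure D1:**
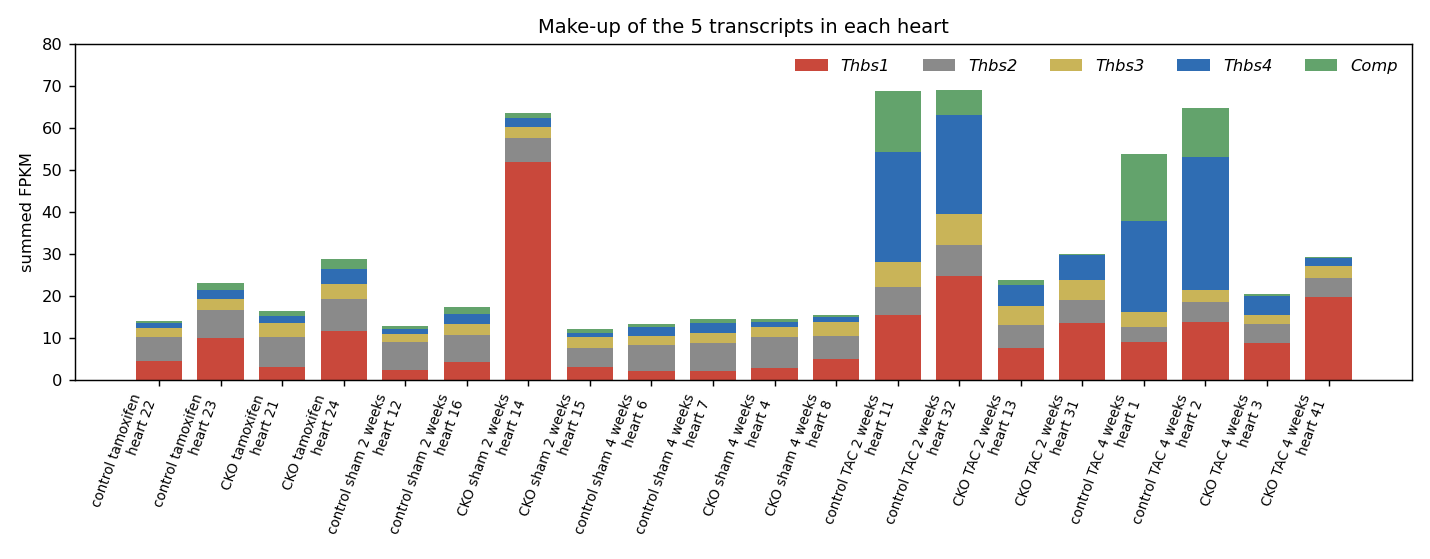
Stacked bars give the FPKM of each of the 5 genes in each of 20 hearts, ordered by stage and genotype. The 4 control TAC hearts reach 53.8 to 69.1 FPKM, mainly through Thbs4 (blue), Comp (green) and Thbs1 (red), while the sum of CKO sham heart 14 (63.5 FPKM) is mostly Thbs1.

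Thbs4 separated control TAC hearts from all others. Its level was 26.2 and 23.7 FPKM in control hearts 11 and 32 at 2 weeks after TAC, and 21.7 and 31.7 FPKM in control hearts 1 and 2 at 4 weeks. The control sham hearts held 1.31 and 2.54 FPKM at 2 weeks (hearts 12 and 16) and 2.09 and 2.40 FPKM at 4 weeks (hearts 6 and 7). In CKO hearts Thbs4 was 4.91 and 5.89 FPKM at 2 weeks after TAC (hearts 13 and 31) and 4.61 and 2.00 FPKM at 4 weeks (hearts 3 and 41). CKO sham hearts had 2.16 and 1.07 FPKM at 2 weeks (hearts 14 and 15) and 1.21 and 1.37 FPKM at 4 weeks (hearts 4 and 8). The control TAC hearts lay above every other heart of the series without overlap. CKO TAC hearts lay above the CKO sham hearts at 2 weeks and at 4 weeks, but heart 41, at 4 weeks, was below sham heart 14 of the earlier time. At the end of tamoxifen the level was 1.28 and 2.05 FPKM in controls (hearts 22 and 23) and 1.77 and 3.67 FPKM in CKO hearts (hearts 21 and 24).

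Comp ran from 0.184 to 16.0 FPKM, the widest range of the family as a ratio of highest to lowest, and its high values were those of control TAC hearts. They held 14.5 and 5.95 FPKM at 2 weeks (hearts 11 and 32) and 16.0 and 11.6 FPKM at 4 weeks (hearts 1 and 2). Control sham hearts had 0.760, 1.49, 0.761 and 0.933 FPKM (hearts 12, 16, 6 and 7). The CKO TAC hearts did not share that level. Hearts 13 and 31 had 1.40 and 0.462 FPKM at 2 weeks, and hearts 3 and 41 had 0.334 and 0.184 FPKM at 4 weeks, the lowest of all groups. CKO sham hearts were at 1.07 and 0.854 FPKM at 2 weeks (hearts 14 and 15) and 0.630 and 0.416 FPKM at 4 weeks (hearts 4 and 8). Control and CKO hearts at the end of tamoxifen overlapped, with 0.448 and 1.66 FPKM in hearts 22 and 23 and 1.11 and 2.28 FPKM in hearts 21 and 24. Values under 0.5 FPKM are near the pseudocount of 0.5 FPKM added before the logarithm, so log2 differences between such levels understate the ratio. The mean of Comp outside the control TAC hearts was 0.925 FPKM, so that it passed the filter on low values without them, as did the other 4 genes.

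Thbs1 was higher in every TAC heart of either genotype than in any sham heart but 1, and varied more between hearts of a group than the other 4 genes. Control hearts had 15.5 and 24.8 FPKM at 2 weeks after TAC (hearts 11 and 32) and 8.86 and 13.8 FPKM at 4 weeks (hearts 1 and 2), against 2.34, 4.26, 2.02 and 2.05 FPKM after sham (hearts 12, 16, 6 and 7). CKO TAC hearts had 7.52 and 13.6 FPKM at 2 weeks (hearts 13 and 31) and 8.80 and 19.7 FPKM at 4 weeks (hearts 3 and 41). CKO sham hearts 15, 4 and 8 had 2.97, 2.77 and 4.98 FPKM, and heart 14 had 51.9 FPKM, the highest Thbs1 value of the series. Apart from heart 14, no sham heart reached the lowest TAC heart of either genotype. At the end of tamoxifen the hearts ranged from 2.95 to 11.6 FPKM, with 1 low and 1 high heart in each genotype (22 and 23 in controls, 21 and 24 in CKO).

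Thbs3 moved less and with time. Its highest levels were 5.90 and 7.46 FPKM in control hearts 11 and 32 at 2 weeks after TAC, followed by 4.62 and 4.82 FPKM in CKO hearts 13 and 31 at the same time. At 4 weeks after TAC it was 3.54 and 3.01 FPKM in controls (hearts 1 and 2) and 2.14 and 2.83 FPKM in CKO hearts (3 and 41). The latter overlapped the CKO sham hearts at that time, with 2.35 and 3.19 FPKM. Thbs2 was the steadiest gene of the family, between 3.74 and 7.54 FPKM over all 20 hearts. Its lowest levels were in TAC hearts at 4 weeks, with 3.74 and 4.55 FPKM in control hearts 1 and 2 and 4.49 and 4.62 FPKM in CKO hearts 3 and 41. The SD of log2(FPKM + 0.5) over the 20 hearts was 1.45 for Thbs4, 1.40 for Comp, 1.22 for Thbs1, 0.46 for Thbs3 and 0.26 for Thbs2, beside a median of 0.22 over the 12589 genes analysed. Within groups the SD was 1.09 for Thbs1, 0.52 for Comp, 0.43 for Thbs4, 0.18 for Thbs3 and 0.14 for Thbs2, beside a median of 0.16.

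**Figure D2:**
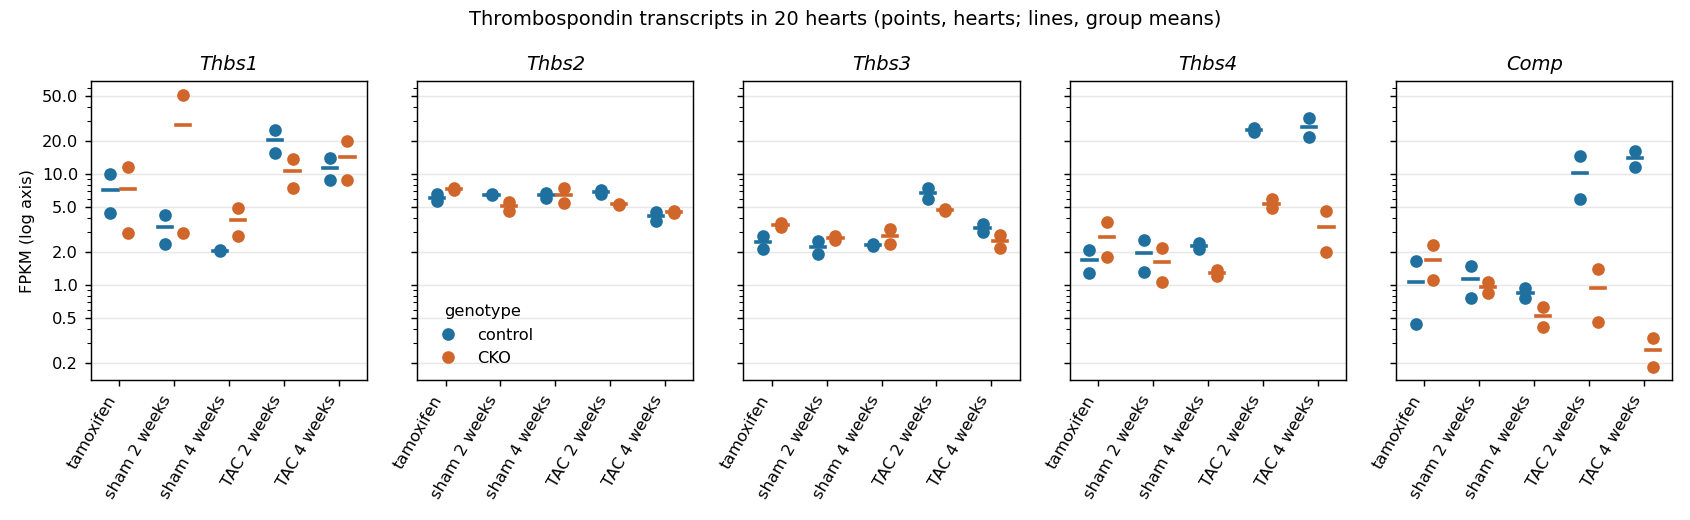
Points give the FPKM of each gene in each heart on a log axis, by stage, with controls in blue and CKO hearts in orange and lines at the group means (n = 2). Thbs4 and Comp of the control TAC hearts (21.7 to 31.7 and 5.95 to 16.0 FPKM) lie above every other heart, and 1 CKO sham heart has 51.9 FPKM of Thbs1.

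The order of the 10 groups differed from gene to gene. Overlap between neighbours in that order was not set against its share over all genes, so it is given as a description only. For Thbs4 the group means ran from 26.7 ± 7.12 FPKM (SD, n = 2) in control hearts 4 weeks after TAC and 24.9 ± 1.79 FPKM at 2 weeks, which overlapped, to 5.40 ± 0.699 FPKM in CKO hearts 2 weeks after TAC, which overlapped neither neighbour. The other 7 groups, from 3.30 ± 1.84 FPKM (CKO, 4 weeks after TAC) to 1.29 ± 0.108 FPKM (CKO sham, 4 weeks), each overlapped the next in the order. For Comp, control hearts at 4 weeks (13.8 ± 3.09 FPKM) and 2 weeks after TAC (10.2 ± 6.05 FPKM) overlapped each other and led the rest. CKO hearts at 4 weeks after TAC came last at 0.259 ± 0.106 FPKM, below the CKO sham hearts of that time at 0.523 ± 0.151 FPKM without overlap. For Thbs1 the means ran from 27.4 ± 34.6 FPKM in CKO sham hearts at 2 weeks to 3.30 ± 1.36 FPKM in control sham hearts at 2 weeks. Control sham hearts at 4 weeks stood below at 2.04 ± 0.0164 FPKM. Thbs3 had control hearts at 2 weeks after TAC first (6.68 ± 1.11 FPKM) and CKO hearts at 2 weeks after TAC second (4.72 ± 0.146 FPKM), both without overlap with the group that followed. In Thbs2 the means spanned only 7.34 ± 0.282 FPKM (CKO, end of tamoxifen) to 4.14 ± 0.574 FPKM (control, 4 weeks after TAC).

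Pressure overload in control hearts, averaged over both times, went with higher Thbs4, Comp, Thbs1 and Thbs3. On the log2(FPKM + 0.5) scale, TAC minus sham was 3.36 ± 0.27 (SE of the limma model) for Thbs4, 3.02 ± 0.32 for Comp, 2.32 ± 0.66 for Thbs1, 0.93 ± 0.13 for Thbs3 and -0.25 ± 0.10 for Thbs2. By the call rule used throughout (limma, Benjamini-Hochberg adjusted p under 0.05 over 12589 genes) 4 of the 5 were called higher, where 31.4% of all genes were called. The members were chosen with this contrast known, and nothing is read from the count. Thbs1 lost its call without any 1 of hearts 12, 32 or 2, with log2 differences of 2.13 to 2.51 when a heart was left out. At 2 weeks, Thbs4 (3.44 ± 0.37), Comp (2.64 ± 0.46) and Thbs3 (1.42 ± 0.18) were called, where 23.8% of genes were called. Thbs1 (2.45 ± 0.93) and Thbs2 (0.08 ± 0.14) were not. At 4 weeks, Comp (3.39 ± 0.46) and Thbs4 (3.29 ± 0.37) were called higher and Thbs2 (-0.58 ± 0.14) lower, where 12.7% of genes were called. Neither Thbs1 (2.19 ± 0.93) nor Thbs3 (0.43 ± 0.18) was called. The Thbs2 call was lost without heart 1, without heart 7 and in a fit of the groups compared alone. Without the 5 hearts high in Myl7, Thbs1 was called at 2 weeks (3.16 ± 0.67) and at 4 weeks (2.19 ± 0.47), as it was in the fit of the groups compared alone.

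In CKO hearts the difference between TAC and sham was smaller for Thbs4 and of either sign for the others. Averaged over both times, it was 1.26 ± 0.27 for Thbs4, 0.67 ± 0.66 for Thbs1, 0.30 ± 0.13 for Thbs3, -0.19 ± 0.10 for Thbs2 and -0.27 ± 0.32 for Comp. Only Thbs4 was called, where 9.11% of genes were called. The Thbs4 call was lost without heart 15, without heart 31 and in a fit of the 4 groups compared alone. Thbs1 is decided by heart 14: without it the Thbs1 difference over both times was 1.65 ± 0.46 and was called (1.65 ± 0.37, also called, without all 5 hearts high in Myl7), and at 2 weeks it was 1.61 ± 0.71 in place of -0.34 ± 0.93. At 2 weeks Thbs4 (1.52 ± 0.37) and Thbs3 (0.73 ± 0.18) were called, where 19.3% of genes were called, and both calls were lost without heart 15, without heart 31 and in a fit of the groups compared alone. Without the 5 hearts high in Myl7, Thbs3 (0.78 ± 0.23) was no longer called. At 4 weeks none of the 5 was called, where 0.262% of genes were called. The differences were 1.69 ± 0.93 for Thbs1, 1.00 ± 0.37 for Thbs4, -0.13 ± 0.18 for Thbs3, -0.43 ± 0.46 for Comp and -0.45 ± 0.14 for Thbs2.

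**Figure D3:**
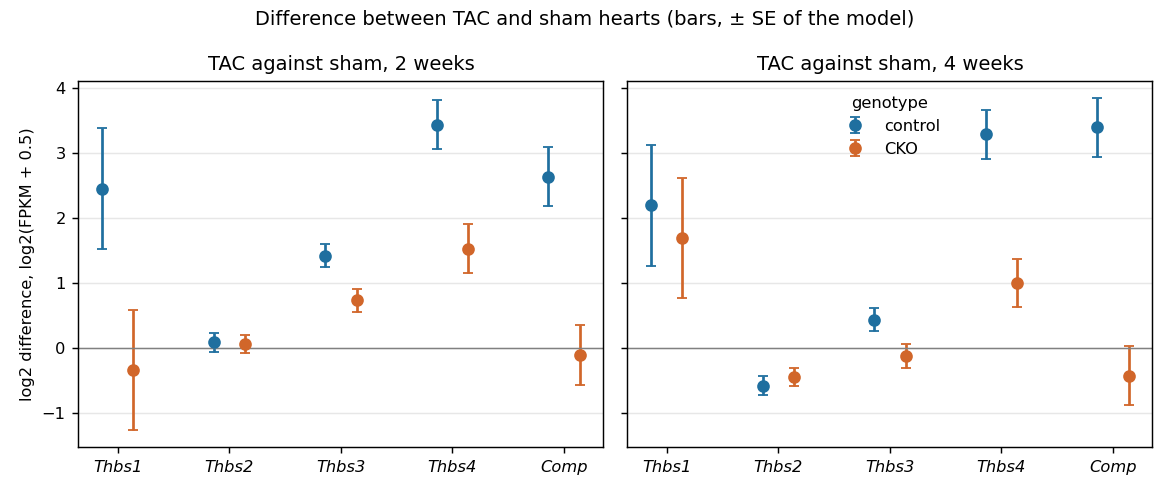
Points give TAC minus sham on the log2(FPKM + 0.5) scale for each gene at 2 weeks (left) and 4 weeks (right), in control (blue) and CKO (orange) hearts, with bars of 1 SE of the model, 2 hearts a group. Comp stands at 2.64 and 3.39 in control hearts and at -0.11 and -0.43 in CKO hearts.

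The difference of the TAC response, CKO minus control, was -3.28 ± 0.46 for Comp, -2.10 ± 0.37 for Thbs4, -1.65 ± 0.93 for Thbs1, -0.63 ± 0.18 for Thbs3 and 0.06 ± 0.14 for Thbs2 over both times. Comp and Thbs4 were called, where 1.25% of genes were called. Both calls were kept without any 1 heart and lost when the 5 hearts high in Myl7 were left out (-3.09 ± 0.48 for Comp and -2.06 ± 0.38 for Thbs4, close to the values with them). Without heart 14 the Thbs1 value was -0.67 ± 0.61. At 2 weeks none of the 5 was called, where 0.0159% of genes were called, with -2.75 ± 0.65 for Comp and -1.91 ± 0.53 for Thbs4. At 4 weeks Comp was called (-3.82 ± 0.65), where 0.747% of genes were called, and Thbs4 (-2.29 ± 0.53) was not. The Comp call was lost when any 1 of hearts 1, 4, 6, 7, 8 or 41 was left out, with values between -4.05 and -3.60, and in a fit of the groups compared alone. Thbs4 was called at 4 weeks without heart 3 and with a pseudocount of 1 FPKM. These differences are built from the same hearts as the comparisons of TAC with sham above and add no separate measurement.

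Set directly against each other, CKO and control TAC hearts differed in the same members. At 2 weeks after TAC, CKO minus control was -2.86 ± 0.46 for Comp and -2.11 ± 0.37 for Thbs4, both called lower, where 0.413% of genes were called. The other 3, Thbs1 (-0.92 ± 0.93), Thbs3 (-0.45 ± 0.18) and Thbs2 (-0.34 ± 0.14), were not called. The Comp call was lost without heart 11 or 31 and in a fit of the groups compared alone. The Thbs4 call was lost without any 1 of the 4 hearts and with a pseudocount of 0.1 FPKM. Without the 5 hearts high in Myl7 neither was called (-2.25 ± 0.50 for Comp and -2.04 ± 0.39 for Thbs4). At 4 weeks the values were -4.23 ± 0.46 for Comp and -2.90 ± 0.37 for Thbs4, both called lower, where 0.834% of genes were called. They kept their calls without any 1 heart and lost them in a fit of the groups compared alone. Without TAC no member was called between genotypes. At the end of tamoxifen, where 0.0159% of genes were called, the differences ran from -0.16 ± 0.93 (Thbs1) to 0.56 ± 0.46 (Comp). Both CKO hearts of that comparison (21 and 24) were high in Myl7 and neither control heart was. Genotype and atrial tissue therefore cannot be told apart there, and no fit without the hearts high in Myl7 was possible. In sham hearts, where 0.00794% were called, they ran from -0.41 ± 0.27 (Thbs4) to 1.31 ± 0.66 (Thbs1), with 0.33 ± 0.46 for Thbs1 without heart 14.

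Between 2 and 4 weeks after TAC, Thbs3 was lower at the later time in both genotypes. In controls the difference was -0.92 ± 0.18 for Thbs3 and -0.68 ± 0.14 for Thbs2, both called, where 2.16% of genes were called. Comp (0.52 ± 0.46), Thbs4 (0.07 ± 0.37) and Thbs1 (-0.80 ± 0.93) were not. The Thbs2 call was lost without any 1 of the 4 hearts, and that of Thbs3 without heart 1, 2 or 32. Both calls were lost in a fit of the groups compared alone and without the 5 hearts high in Myl7 (-0.74 ± 0.19 for Thbs2 and -1.08 ± 0.23 for Thbs3). In CKO hearts Thbs3 (-0.81 ± 0.18) was called, where 14.9% of genes were called, and was lost without heart 3 or 31 and in a fit of the groups compared alone. The others ran from -0.84 ± 0.46 (Comp) to 0.37 ± 0.93 (Thbs1). In sham hearts of both genotypes no member was called between 4 and 2 weeks, where limma called 0% of genes (1894 of 12589 had an unadjusted p under 0.05). None was called between sham at 2 weeks and the end of tamoxifen either, where 0.913% were called.

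The Thbs1 value of heart 14 came with high values of other genes. The summed FPKM of 6 immediate early genes (Fos, Fosb, Egr1, Atf3, Jun and Nr4a1, transcription factors induced within minutes of a stimulus) was 169 in heart 14 and 38.2 to 75.2 in the other 7 sham hearts. It was 492 and 512 in hearts 23 and 24 and 227 in heart 41, which had the higher Thbs1 of their groups, but 248 and 161 in hearts 22 and 21 with 4.49 and 2.95 FPKM of Thbs1, so the order of the hearts was not the same. The 8 platelet markers summed to 56.1 FPKM in heart 14, within the 39.6 to 71.3 FPKM of the other sham hearts. Of the defining genes, Itga2b was at most 0.917 FPKM and Gp6 at most 0.150 FPKM in any heart, while Pf4, at 35.3 to 89.5 FPKM, made up most of the sum. Heart 14 also had the highest Myl7 of the series, 372 FPKM, whereas heart 21, with 323 FPKM, had 2.95 FPKM of Thbs1. The part of these genes in the Thbs1 value was not tested.

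**Figure D4:**
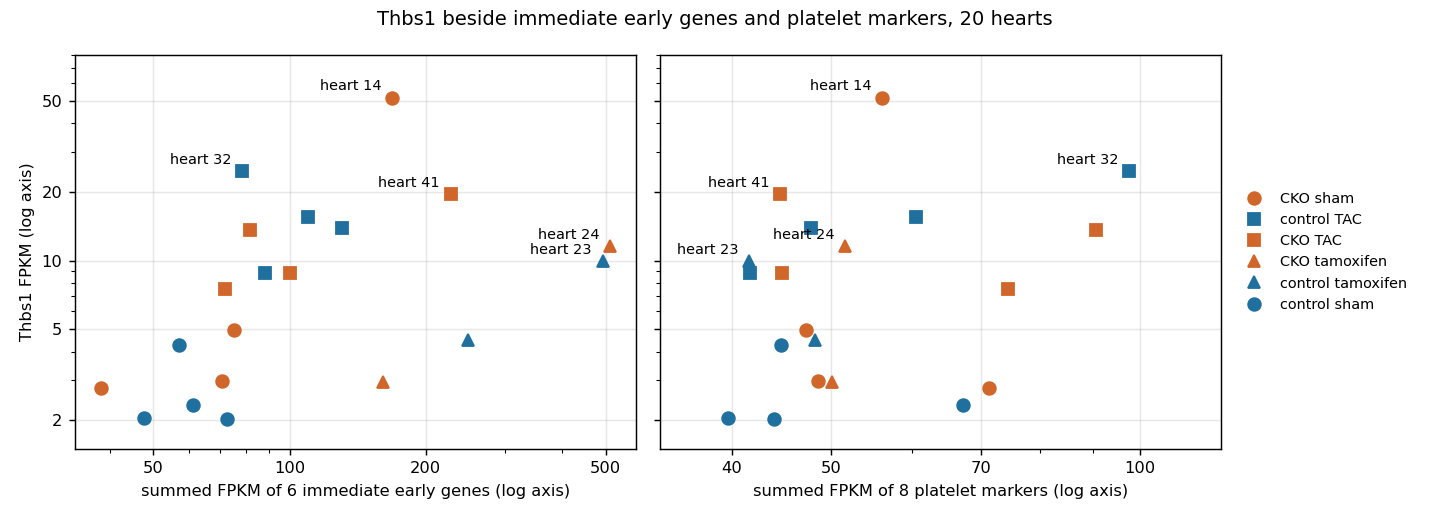
Each point is 1 of 20 hearts, with Thbs1 FPKM on the vertical axis against the summed FPKM of 6 immediate early genes (left) and of 8 platelet markers (right), all on log axes; colour gives the genotype and shape the stage. Heart 14, with 51.9 FPKM of Thbs1, has an immediate early sum of 169 and a platelet sum of 56.1, inside the range of the other hearts in both.

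Genes whose pattern over the 20 hearts was most like that of each member were found by the root mean square (RMS) difference of log2(FPKM + 0.5) centred on each gene's mean. The search covered 10711 genes outside the family that averaged 1 FPKM or more, and left out predicted and clone names. That average was over all 20 hearts, so a gene could pass through its control TAC hearts. Ltbp2, Dio2, Fmod and Spp1, named below, averaged 0.376, 0.370, 0.411 and 0.712 FPKM in control sham hearts. In control TAC hearts they averaged 8.50, 5.32, 6.50 and 7.25 FPKM, so the filter itself favoured genes with that pattern. For Thbs4 they included Ltbp2, a latent TGF-beta binding protein of elastic fibres (RMS 0.31), and Dio2, the enzyme that activates thyroid hormone (0.49), beside a median of 1.43 over all genes compared. Ltbp2 was picked for its likeness to Thbs4 over these same hearts, so its levels add no separate agreement. They were 8.50 ± 1.97 FPKM (SD, n = 4) in control TAC hearts and 1.43 ± 0.659 FPKM in CKO TAC hearts. Control and CKO sham hearts had 0.376 ± 0.0773 and 0.462 ± 0.112 FPKM. Outside the family Comp was likest to the collagen-binding proteoglycan gene Fmod (0.51), then to Spp1, which encodes osteopontin (0.73), and Ltbp2 (0.76), with a median of 1.39. Thbs1 was likest to the immediate early genes Egr3 (0.41) and Egr2 (0.45), then to Nfkbiz, a nuclear regulator of inflammation (0.76), with a median of 1.21. The level of Egr2 was 0.279 ± 0.134 FPKM (SD, n = 4) in control sham and 5.40 ± 1.02 FPKM in control TAC hearts. In CKO hearts it was 4.11 ± 7.25 FPKM in sham and 4.13 ± 4.05 FPKM in TAC hearts. The SD of the CKO sham hearts exceeded their mean, so these means do not show that most hearts had like levels. Thbs3 was likest to Colec12, Ccdc80 and Gpc6 (0.18 each; median 0.49) and Thbs2 to Htra3, Ece1 and Adamtsl4 (0.18, 0.19 and 0.19; median 0.33). Within the family the smallest RMS differences were those of Thbs2 with Thbs3 (0.49) and Comp with Thbs4 (0.71). The largest was that of Thbs2 with Thbs4 (1.49). The measure is not scaled by spread, so genes that vary little come out near each other whatever their patterns. Thbs2 and Thbs3 varied least in the family (SD 0.26 and 0.46), so their small RMS difference does not show a shared pattern.

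Collagens, fibronectin and other matrix ligands form a list of 21 partners of the family. With TAC in control hearts, 12 of them passed the filter on low values (0.5 FPKM or more on average) and were called higher by limma, where 31.4% of all genes were called. The other 9 were not tested, so the count does not cover the list. The median log2 difference of the 12 was 1.56, beside -0.0023 over all genes. Postn, a matricellular protein of activated fibroblasts, rose from 16.3 to 254.5 FPKM (log2 difference 3.74 ± 0.17, limma adjusted p = 3.22e-08), and Fmod from 0.411 to 6.50 FPKM (3.06 ± 0.34, limma adjusted p = 2.26e-05). Eln, which encodes elastin (1.86 ± 0.09, limma adjusted p = 3.97e-08), Fn1, fibronectin (1.58 ± 0.12, limma adjusted p = 1.36e-06), and Col1a2, a chain of collagen I (1.60 ± 0.14, limma adjusted p = 3.85e-06), rose as well. In CKO hearts 9 of the 12 were called higher (3 to 9 over the alternatives), where 9.11% of all genes were called, with a median of 0.67 beside 0.0056 over all genes. For the difference of the response, CKO minus control, 7 of the 12 were called lower (1 to 7 over the alternatives), where 1.25% of all genes were called, with a median of -0.78 beside 0.01 over all genes. Those differences were -1.20 ± 0.13 for Eln, -1.81 ± 0.23 for Postn (limma adjusted p = 0.00294 for each), -2.49 ± 0.48 for Fmod (limma adjusted p = 0.025), -0.84 ± 0.18 for Fn1 (limma adjusted p = 0.0345) and -0.93 ± 0.20 for Col1a2 (limma adjusted p = 0.0435). Over the alternatives tried the call of Col1a2 was lost in 15 of 24, that of Fn1 in 12 of 24, that of Fmod in 8 of 23, that of Postn in 1 of 24, and that of Eln in none, all with the same sign.

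All 15 genes of the TGF-beta list were tested. With TAC in control hearts 12 were called higher and 2 lower (median 0.69), where 31.4% of all genes were called. In CKO hearts 3 were called higher and 1 lower (median 0.24), where 9.11% of all genes were called, and the number called ranged from 0 to 6 over the alternatives. For the difference of the response 2 were called lower (median -0.40), where 1.25% of all genes were called. Ltbp2 differed by 3.34 ± 0.22 in control hearts (limma adjusted p = 2.39e-07) and 0.93 ± 0.22 in CKO hearts (limma adjusted p = 0.0199), a difference of -2.41 ± 0.31 (limma adjusted p = 0.00294). The call of Ltbp2 in CKO hearts was lost in 6 of 15 alternatives, with limma adjusted p up to 0.0949, and that of the difference without the 5 hearts high in Myl7 (limma adjusted p = 0.0644). The ligand gene Tgfb3 rose by 1.27 ± 0.09 in control hearts (limma adjusted p = 3.76e-07). The difference of its response was -1.03 ± 0.12 (limma adjusted p = 0.00294). Tgfb2 (1.67 ± 0.17, limma adjusted p = 1.18e-05) and Ltbp3, which keeps the ligands latent (0.74 ± 0.09, limma adjusted p = 6.42e-05), rose in control hearts; the differences of their responses, -0.92 ± 0.24 and -0.52 ± 0.13, did not pass.

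Of 17 receptors and co-receptors of thrombospondins, 15 were tested. With TAC in control hearts 5 were called higher and 1 lower (median 0.31), a share near the 31.4% called over all genes. In CKO hearts none was called higher and 2 lower (median 0.20), where 9.11% of all genes were called, and the number called ranged from 0 to 2 over the alternatives. None was called for the difference of the response (median -0.01), where 1.25% of all genes were called. The integrin subunit genes Itgb1 (0.40 ± 0.06, limma adjusted p = 0.000215), Itgav (0.38 ± 0.08, limma adjusted p = 0.00243) and Itgb3 (0.69 ± 0.15, limma adjusted p = 0.00385) and the heparan sulphate proteoglycan gene Sdc1 (0.82 ± 0.16, limma adjusted p = 0.00148) were those of smallest p in control hearts. Their differences of response were -0.23 ± 0.08, -0.31 ± 0.11, -0.26 ± 0.22 and -0.63 ± 0.22, none past the threshold.

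Among other proteins with thrombospondin type 1 repeats, 29 of 42 were tested. With TAC in control hearts 16 were called higher and 1 lower (median 0.43), where 31.4% of all genes were called. In CKO hearts 2 were called higher and 1 lower (median 0.31), where 9.11% of all genes were called, and 1 was called higher for the difference of the response (median -0.18), where 1.25% were called. Adamtsl2, a protein of microfibrils, differed by 2.2 ± 0.19 in control hearts (limma adjusted p = 2.6e-06) and Ctgf, a matricellular growth factor, by 2.99 ± 0.28 (limma adjusted p = 6.07e-06). The collagen propeptidase gene Adamts2 rose by 1.28 ± 0.18 (limma adjusted p = 0.000121) in the same comparison. Genes of proteases and inhibitors reported to act on the family formed a list of 9, which shares the Adamts genes with the one before. Of these 7 were tested, and against the same shares over all genes 4 were called higher and 1 lower in control hearts (median 0.36), 1 higher in CKO hearts (median 0.45), and 1 higher for the difference of the response (median -0.05). Adamts7, a protease that cleaves the Comp protein, fell by 1.13 in control TAC hearts (SE 0.12, limma adjusted p = 1.5e-05), from 5.01 to 2.01 FPKM, and the difference of its response was 0.75 ± 0.17 (limma adjusted p = 0.0455), a call lost in 19 of 24 alternatives. Adamts4 (1.17 ± 0.22, limma adjusted p = 0.00116), Adamts1 (0.87 ± 0.20, limma adjusted p = 0.00495) and Grn (0.36 ± 0.09, limma adjusted p = 0.00815) rose in control hearts.

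All 19 genes of ATF6 and protein folding in the endoplasmic reticulum were tested. With TAC in control hearts none was called higher and 12 were called lower (median -0.36), where 31.4% of all genes were called, and the number called ranged from 5 to 16 over the alternatives. In CKO hearts 1 was called lower (median -0.07), where 9.11% of all genes were called, and none was called for the difference of the response (median 0.30), where 1.25% were called. Herpud1, a factor of protein degradation at the endoplasmic reticulum, fell from 120 to 54.8 FPKM in control hearts (-1.14 ± 0.11, limma adjusted p = 8.27e-06) and from 97.3 to 66.8 FPKM in CKO hearts (-0.57 ± 0.11, limma adjusted p = 0.00914). The chaperone genes Canx (-0.47 ± 0.07, limma adjusted p = 0.000139), Dnajb9 (-0.52 ± 0.08, limma adjusted p = 0.000281) and Hyou1 (-0.85 ± 0.15, limma adjusted p = 0.000835) fell in control hearts as well.

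Some marker lists of other cells moved with these groups and others did not. In RNA of mixed heart tissue, fewer cells of a type and less RNA per cell cannot be told apart. At 2 weeks after TAC, macrophage markers summed to 556.4 to 595.5 FPKM in control and 557.6 to 675.6 FPKM in CKO hearts. The sham hearts of that time had 308.6 to 483.7 FPKM in controls and 306.7 to 441.3 FPKM in CKO mice. Endothelial markers at 2 weeks summed to 332.4 to 336.2 FPKM in control and 410.6 to 429.2 FPKM in CKO TAC hearts, and to 246.5 to 291.7 and 256.3 to 316.7 FPKM after sham. The 6 resting fibroblast markers summed to 885.2 to 896.0 FPKM at 2 weeks and 632.0 to 745.4 FPKM at 4 weeks in control TAC hearts. Control sham hearts had 834.4 to 847.0 and 881.7 to 968.9 FPKM. In CKO hearts the sums were 646.0 to 835.2 and 786.6 to 793.8 FPKM after TAC, beside 797.5 to 936.5 and 902.6 to 1015 FPKM after sham. All 6 activated fibroblast markers (Postn, Cilp, Meox1, Cthrc1, Fap and Col8a1) averaged 0.5 FPKM or more. Their sum was 540 to 603 FPKM in control and 250 to 326 FPKM in CKO hearts at 2 weeks after TAC, and 229 to 246 and 52.2 to 88.8 FPKM at 4 weeks. Hearts without TAC had 23.9 to 50.8 FPKM. At 4 weeks after TAC the sum was below that at 2 weeks in both genotypes. Thbs4 and Comp overlapped between those times in controls, whereas in CKO hearts both were lower at 4 weeks in every heart than at 2 weeks. A set of 5 load genes of cardiac myocytes (Nppa, Nppb, Acta1, Myh7 and Ankrd1) summed to 13190 to 24840 FPKM in control and 4973 to 8318 FPKM in CKO TAC hearts, and to 1220 to 2826 FPKM without TAC. Of 7 tendon, cartilage and valve markers measured, where Comp is best known, Col2a1 was at most 0.0314 FPKM and Acan at most 0.178 FPKM in any heart, while the sum, mainly of Scx, was 15.6 to 25.4 FPKM in control and 13.3 to 20.5 FPKM in CKO TAC hearts and 5.37 to 13.2 FPKM otherwise. The part of these cells, or of the degree of constriction, in the levels of the family was not tested.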

How the data were processed

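Transcripts were measured by RNA sequencing in 20 mouse hearts, which the labels put in 10 groups of 2. Per the labels' protocols, RNA extraction used the miRNeasy Mini Kit and libraries were TruSeq Stranded mRNA. Per the submitters' processing notes, TopHat2 2.1.1, Bowtie2 and Cuffdiff 2.2.1 were used with build mm10; no source used here gives parameters or annotation. The authors deposited FPKM, 1 table of 23284 genes per heart, with no counts. FPKM of a gene follow the annotated length and how reads of overlapping genes were shared out, so Thbs3 is uncertain beside Mtx1. Steps between low values gave whole multiples within 5% for 96.76% of 18240 values of 1636 genes, and a relative depth of 0.877 to 1.21; no count test was run, since a fragment is worth a different FPKM in each gene. FPKM summed to 579596 to 713671 per heart. No 2 tables were identical.

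The 12589 genes averaging 0.5 FPKM or more were analysed as log2(FPKM + 0.5), so a fold change of a low gene is understated. A linear model of the 10 group means was fitted in limma 3.58.1 (R 4.3.3) with a trended prior variance and 10 residual degrees of freedom, and 17 contrasts were adjusted by Benjamini-Hochberg over all 12589 genes at 0.05. The labels name hearts, and the p-values measure the spread between them. The model was tested on simulated data. The members, lists, tests and alternatives were chosen with earlier results of these data known; immediate early genes and load genes were added as lists afterwards. Members carry no p. Of each list, the text names genes with the smallest p for TAC in control hearts or for the difference of the response, and for each member the 3 genes of likest pattern; some named items are not reported here. The alternatives changed the pseudocount (0.1 or 1 FPKM), the filter (none, or 3 FPKM), the scaling (median ratio), the prior (no trend) or the samples (the groups compared alone, each heart left out in turn, or all but the 5 hearts with Myl7 of at least 10 FPKM). Where 1 heart is left out, the remaining heart of its group is taken to vary as the other groups do. Promoters came from RefSeq, GRCm38.p6, and gene positions from GENCODE M21, mm10. Figures were drawn with Python 3.11.15 and matplotlib 3.10.9.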

Additional observations from a re-analysis of the deposited data

Results flagged for a closer look

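In 20 sets of 4 hearts of 1 genotype and operation, both times together, 2 held a heart farther from the others than expected at the 95% level of Dixon's test, and chance flags about 1 in 20 such sets. Both were Thbs1: heart 14 among the CKO sham hearts, with 51.9 FPKM (51.8572 in the deposited table), and heart 16 among the control sham hearts, with 4.26 FPKM.

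The response to TAC differed between genotypes, by limma's test of the difference itself, for these genes. For the members the difference is a description: Comp, -3.28 over both times and -3.82 at 4 weeks, and Thbs4, -2.10 over both times. Among the matrix ligands the differences were -1.20 for Eln, -1.81 for Postn, -2.49 for Fmod, -0.84 for Fn1 and -0.93 for Col1a2, all lower in CKO hearts. Tgfb3 (-1.03) and Ltbp2 (-2.41) were lower as well. Adamts7, at 0.75, was the only listed gene among those named whose difference was called higher, a call lost in 19 of 24 alternatives. The differences are on the log2(FPKM + 0.5) scale over both times unless a time is given.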

How the results depend on the processing

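No paired analysis was possible because the heart numbers do not recur across groups. No called member difference changed sign under any alternative. The number of members called moved by over 1.5 times as follows. With a pseudocount of 0.1 FPKM, CKO against control at 2 weeks after TAC gave 1 in place of 2, and with 1 FPKM the difference of the TAC response at 4 weeks gave 2 in place of 1. Fitting only the groups compared gave 0 for TAC in CKO hearts over both times and at 2 weeks, for the difference at 4 weeks, for CKO against control at 4 weeks after TAC and for 4 against 2 weeks after TAC in either genotype, and 1 for CKO against control at 2 weeks; such a fit has few residual degrees of freedom. Without the 5 hearts with Myl7 of at least 10 FPKM, TAC in CKO hearts gave 2 over both times and 1 at 2 weeks, and the difference over both times, CKO against control at 2 weeks after TAC, and 4 against 2 weeks in controls gave 0. With 1 heart left out the counts were 0 to 2 for the difference at 4 weeks and for TAC in CKO hearts over both times and at 2 weeks, and 0 to 1 for CKO against control at 2 weeks after TAC and for 4 against 2 weeks in either genotype; the report names the hearts. Smaller moves were those of TAC in control hearts, to 4 in place of 3 at 2 weeks (only the groups compared, or without the Myl7 hearts) and at 4 weeks (without the Myl7 hearts), to 2 at 4 weeks without heart 1 or 7, and to 3 in place of 4 over both times without heart 2, 12 or 32. The causes of these changes were not tested.

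Counts over all genes moved by more than 1.5 times as well. Leaving out 1 heart gave 351 to 1215 genes for TAC in CKO hearts over both times (1147 with all hearts), 465 to 2208 at 2 weeks (2424), 75 to 182 for the difference over both times (157), 20 to 121 at 4 weeks (94), 5 to 119 for CKO against control at 2 weeks after TAC (52) and 19 to 176 at 4 weeks (105). It gave 1618 to 2303 for TAC in control hearts at 2 weeks (2998), 660 to 1053 at 4 weeks (1603), 0 to 88 in CKO hearts at 4 weeks (33), 1 to 148 for 4 against 2 weeks after TAC in controls (272), 203 to 1795 in CKO hearts (1876), and 16 to 49 for sham against the end of tamoxifen (115). Only the groups compared gave 15 genes for TAC in CKO hearts at 2 weeks, 2 for CKO against control and 355 for TAC in controls at 4 weeks, and 1 and 3 for 4 against 2 weeks in control and CKO hearts. Without the Myl7 hearts the difference over both times had 18 genes. With 2 hearts a group for every gene, the SE of a difference at 1 time was 0.93 for Thbs1 and 0.14 to 0.46 for the other 4 members. The widest Thbs1 pair was that of CKO sham hearts at 2 weeks, with 51.9 and 2.97 FPKM (hearts 14 and 15). This SE enters every Thbs1 comparison at 1 time, also those without these hearts, and limits what can be called for that gene.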
